A study of Homo sapiens with 3 samples.

Results

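Glycosyltransferases build the sugar chains that cover a cell, and 76 of their genes were followed across 3 undifferentiated human embryonic stem (ES) cell lines. Members were all probes whose annotated gene symbol named a galactosyl-, N-acetylglucosaminyl-, N-acetylgalactosaminyl-, fucosyl- or sialyltransferase of the B3GALT, B4GALT, B3GNT, B4GALNT, FUT, ST3GAL, ST6GAL, ST6GALNAC, ST8SIA, GALNT or GCNT families, together with A4GALT, B3GALNT1 and UGCG. The rule uses symbols and no measured values, though it was drawn up with earlier results of these data known. It gave 87 of the 18468 probes with a gene name, which read 76 of 16225 genes. Genes that match the rule by an older symbol alone (B4GAT1, POFUT1, POFUT2, POFUT3, POFUT4 and QTGAL) were not taken as members. The lines were ES01, BG03 and H9, which the labels place in 1 group of undifferentiated cells. All were grown on irradiated mouse embryonic fibroblasts (MEFs) in medium with serum replacement and FGF2, and each line was hybridised to 1 Illumina array. The series also covers mouse ES cells and epiblast stem cells (EpiSCs), which are not analysed here. Each line is a single culture on a single array, so line, culture and array cannot be told apart, and no test between lines exists. In whole-culture RNA, a higher signal from a gene in every cell and a larger share of cells with that gene also cannot be told apart.

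Surface glycans are the classical labels of human pluripotent cells. The antigens SSEA-3 and SSEA-4 are globo-series glycolipids, built on ceramide by adding sugars in a fixed order, whereas TRA-1-60 and TRA-1-81 lie on keratan sulphate related chains of the protein podocalyxin. SSEA-1 (Lewis x), which marks mouse ES cells, needs an added fucose and is absent from undifferentiated human ES cells. The enzymes measured here transfer the sugars, so their mRNAs describe the machinery and not the glycans themselves.

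Intensities are in the units of the deposited table after quantile normalization, in the order ES01, BG03, H9. A gene was called above background on an array when its brightest probe exceeded a threshold set by 215 probes for olfactory receptors, genes largely silent outside the nose. This threshold, their 95th percentile, was 13.3 units for ES01, 12.6 for BG03 and 11.2 for H9. Differences are given as log2 of the first line over the second, with a value not above background set to its threshold, so that such a fold is a lower bound ("at least"). Levels of different genes are not compared, since probes differ in brightness for reasons other than expression. Each array held 2102778, 2096268 and 2089034 beads. For bead types 10 to 25 units over the median of their file, the standard error of the mean over beads was 2.64 to 3.92 units (18.9% to 23.7% of the value), against 9.93% to 12.8% at 25 to 50 units, 6.52% to 8.02% at 50 to 100 units and 3.46% to 3.94% at 200 to 500 units. Bead error covers the array alone and not the culture. Its units are those of the bead files, and how they relate to the deposited units is not known. The single array per line also limits precision.

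As a check of the labels, all 13 measured ES cell markers were above background in all 3 lines. Of other markers, 7 of 12 fibroblast, 8 of 9 endoderm, 2 of 8 neuroectoderm and 1 of 7 trophoblast genes were above background in every line. The share over all 16225 genes was 59.8%. The summed signal of the fibroblast list was 2753, 2641 and 2630 units, that of the endoderm list 1355, 1371 and 1361, that of the neuroectoderm list 212, 251 and 177, and that of the trophoblast list 70.0, 61.8 and 76.9. The fibroblast genes COL3A1 and POSTN were above background in no line, nor were SOX7, SOX1, NEUROG1, NEUROG2, CDX2, CGA, CGB3, ELF5 and GCM1. Of those lists, COL1A1, COL1A2, LUM and DCN (fibroblast), AFP, TTR, APOA1 and APOA2 (endoderm) and PAX6, OLIG2, DCX and ZIC1 (neuroectoderm) differed at least 2-fold in some pair of lines, as did ZFP42 and UTF1 among the ES cell markers. The endoderm genes moved in opposite directions within their level sum. TTR (21.0, 12.8 and 81.5 units), APOA2 (46.9, 70.0 and 134 units) and APOA1 (147, 287 and 309 units) were highest in H9, whereas AFP was lowest there (383, 322 and 148 units). UTF1 was highest in H9 (342, 307 and 717 units) and ZFP42 in BG03 (247, 780 and 364 units). The fibroblast genes COL1A1 (43.2, 22.0 and 18.6 units) and COL1A2 (582, 229 and 310 units) were highest in ES01. By contrast, LUM was highest in BG03 (10.1, 48.9 and 10.1 units) and DCN in H9 (26.4, -0.6 and 30.5 units). The part of other cells, MEFs included, in the glycosyltransferase signals was not tested.

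Of the 76 glycosyltransferase genes, every line had 44 (57.9%) above background, a further 6 passed in some lines and 26 passed nowhere. Over all 16225 genes 59.8% were above background in all 3 lines and 67.8% in at least 1, against 65.8% of members in at least 1, so these shares were near those of genes at large. The 3 lines were alike in number, with 46 members above background in ES01, 47 in BG03 and 49 in H9. By role, 9 of 10 globo-series genes were above background in at least 1 line, against 2 of 7 genes for Lewis and core fucose. Several members lay close to the threshold. Just above it were B3GALT5 in ES01 (13.9 against 13.3 units) and B3GNT8 in H9 (12.0 against 11.2), and just below it were GCNT4 in BG03 (12.3 against 12.6), B3GNT4 in ES01 (12.9 against 13.3) and B3GNT8 in ES01 (12.8 against 13.3). These calls rest on small gaps. The bead error cannot be set directly against them, since its units are those of the bead files. With the 99th percentile of the olfactory receptor probes as background, 33 members (43.4%) were above it in all lines against 52.9% of all genes. B3GALT4, B3GALT5, B3GNT8, GCNT4, ST3GAL1, ST6GALNAC2 and ST8SIA4 then passed in no line.

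**Figure D1:**
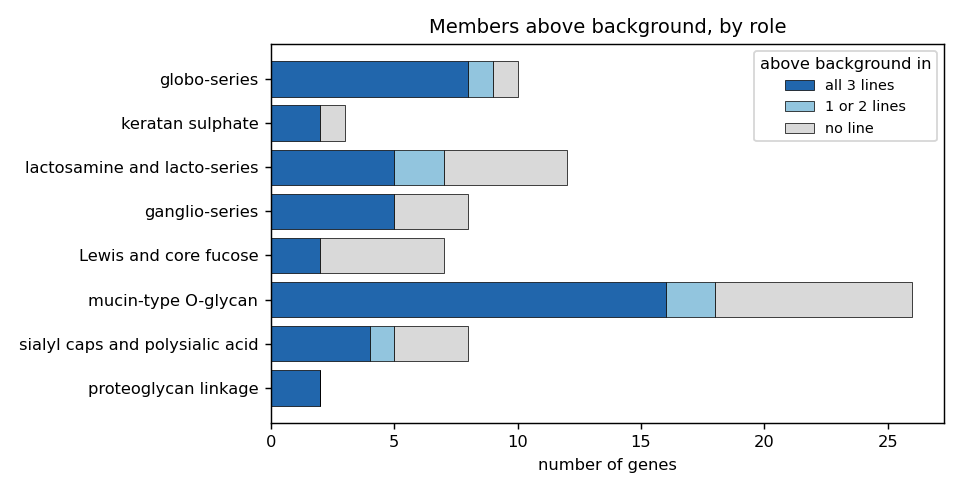
Horizontal bars give the number of genes in each role, split by whether the gene passed background in every line, in some or in none. The globo-series bar holds 8 genes above background in all lines, 1 in some and 1 in none, whereas 5 of 7 genes for Lewis and core fucose were in none.

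Promoter windows, from 250 bases before to 50 after an annotated start, were taken from RefSeq (build GRCh38.p14) for the 56 of 76 members that the table holds. They show how the CpG content of these genes went with detection. CpG observed over expected is the count of CG pairs over that expected from the C and G content. Its median was 0.86 in the 36 members above background in all lines and 0.49 in the 16 above it in none, against 0.85 and 0.42 over all measured genes of the same classes. The share with a ratio over 0.6 was 80.6% and 43.8% in these members, against 84.1% and 40.1% of all measured genes. Members and genes at large thus showed the same order. The letters of the GC box, GGGCGG on either strand, were in 63.9% of members above background in all lines and 56.2% of those in none, CCAAT on either strand in 25% of both, and TATAAA on either strand in 0 of 56. Over measured genes of the same classes the GC box letters were in 70.9% (all lines) and 41.3% (none) and CCAAT in 37.7% and 35.5%. Over all 13133 measured genes TATAAA was in 9.05%, and over the 27305 promoters of the table the shares for these motifs, in the order given, were 44.6%, 35.7% and 12.0%. A match is a run of letters and not a binding site.

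Windows of 5 fucosyl- and galactosyltransferase genes are shown as examples, with each CG pair in capitals. A4GALT (chr22:42720821-42721120, minus strand, 43 CG pairs) has the CpG-rich form, as have UGCG and B3GALT5. FUT1 (chr19:48755309-48755608, minus strand, 3 CG pairs) and FUT6 (chr19:5839653-5839952, minus strand, 3 CG pairs) were above background in all lines with CpG-poor windows. Their neighbours on chromosome 19, FUT2 (chr19:48695721-48696020, plus strand, 8 CG pairs) and FUT3 (chr19:5851400-5851699, minus strand, 9 CG pairs), were above background in no line. The undetected FUT2 and FUT3 thus had more CG pairs than the detected FUT1 and FUT6. The table holds 1 start per gene, and which start these cells use was not measured.
A4GALT: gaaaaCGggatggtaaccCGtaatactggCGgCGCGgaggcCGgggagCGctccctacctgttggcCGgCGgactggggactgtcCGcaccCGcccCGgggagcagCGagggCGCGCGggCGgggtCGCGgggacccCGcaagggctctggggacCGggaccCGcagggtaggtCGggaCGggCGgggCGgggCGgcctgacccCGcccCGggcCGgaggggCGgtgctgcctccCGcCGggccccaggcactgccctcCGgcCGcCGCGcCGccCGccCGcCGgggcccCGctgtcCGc
FUT1: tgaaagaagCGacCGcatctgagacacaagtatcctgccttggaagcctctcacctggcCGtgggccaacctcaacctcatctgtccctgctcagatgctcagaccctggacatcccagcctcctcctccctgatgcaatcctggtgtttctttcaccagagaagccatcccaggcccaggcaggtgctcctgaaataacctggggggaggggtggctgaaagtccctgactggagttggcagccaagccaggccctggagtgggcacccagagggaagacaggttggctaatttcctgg
FUT2: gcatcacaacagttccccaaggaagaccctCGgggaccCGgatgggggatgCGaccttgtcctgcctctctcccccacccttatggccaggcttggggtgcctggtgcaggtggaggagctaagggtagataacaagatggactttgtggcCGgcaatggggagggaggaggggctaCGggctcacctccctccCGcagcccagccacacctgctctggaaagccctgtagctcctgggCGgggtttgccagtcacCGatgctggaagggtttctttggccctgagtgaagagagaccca
FUT6: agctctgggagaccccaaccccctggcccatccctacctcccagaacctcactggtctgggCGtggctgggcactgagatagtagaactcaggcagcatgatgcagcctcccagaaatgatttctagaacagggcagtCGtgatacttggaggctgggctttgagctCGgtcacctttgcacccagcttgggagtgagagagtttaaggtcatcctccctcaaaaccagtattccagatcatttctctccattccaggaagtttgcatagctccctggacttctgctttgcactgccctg
FUT3: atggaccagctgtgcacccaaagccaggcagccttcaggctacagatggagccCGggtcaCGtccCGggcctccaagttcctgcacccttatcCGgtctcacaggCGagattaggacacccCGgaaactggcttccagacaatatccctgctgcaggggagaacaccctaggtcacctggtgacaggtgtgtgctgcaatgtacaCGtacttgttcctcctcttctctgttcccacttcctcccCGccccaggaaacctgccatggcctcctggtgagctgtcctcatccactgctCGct

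**Figure D2:**
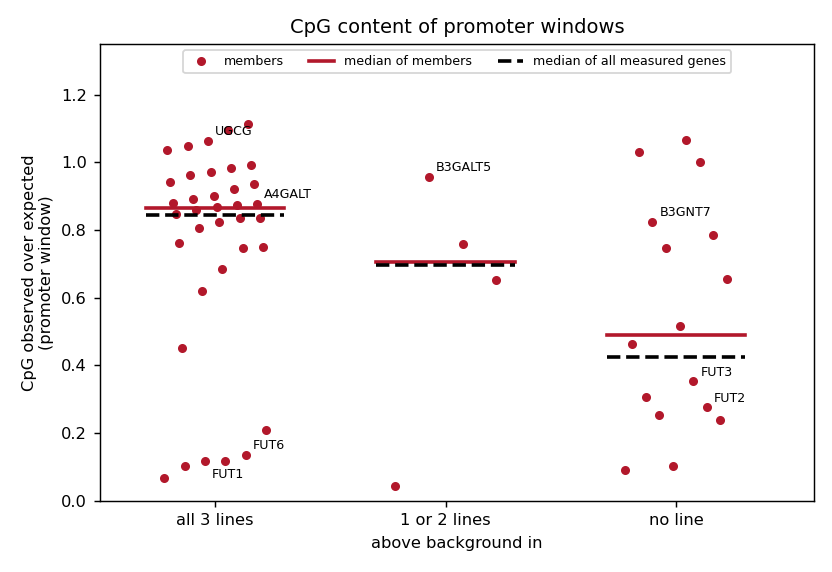
CpG observed over expected in the promoter windows of 56 members (points), by whether the gene passed background in every line, in some or in none, with the median of the members (solid line) and of all measured genes in that class (dashed line). Medians fall to 0.49 for members in no line, against 0.86 for members in all lines, and FUT1 and FUT6 lie low among detected genes.

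The globo-series pathway was represented at nearly every step. UGCG, glucosylceramide synthase and the entry to most glycolipids, measured 431, 441 and 553 units in ES01, BG03 and H9. The lactosylceramide synthases followed, B4GALT5 with 469, 447 and 404 units and B4GALT6 with 86.7, 74.2 and 110.2 units. All 3 genes were far over background in every line, and after quantile normalization no line differed from another by as much as 1.5-fold in any of them. With arrays scaled to the same median, ES01 was more than 1.5-fold lower than H9 in UGCG (log2 difference -0.64) and B4GALT6 (-0.67).

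A4GALT commits lactosylceramide to the globo-series by making Gb3. At the brightest probe of each gene and after quantile normalization, it was the globo-series gene with a 2-fold difference. It measured 24.0 units in ES01, 30.8 in BG03 and 54.9 in H9. The ES01 value was 2.29-fold lower than that of H9 (log2 difference -1.19), and the BG03 value 1.78-fold lower than that of H9 (-0.83). The SD over the 3 lines was 0.61 on the log2 scale, larger than for 87.0% of the 500 genes nearest in mean intensity. With a floor of 50 units the log2 difference of A4GALT for ES01 over H9 was -0.13.

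B3GALNT1, which extends Gb3 to globoside (Gb4), went the other way. Its brightest probe, specific to a transcript form by its suffix, gave 152 units in ES01, 160 in BG03 and 93.8 in H9, and H9 was lowest. A separate probe, designated by its suffix as reading all transcripts, gave 35.4, 31.4 and 15.7 units, with log2 differences of 1.17 for ES01 over H9 and 1 for BG03 over H9, against 0.69 and 0.77 at the brightest probe. Both probes therefore placed H9 lowest, while the log2 difference of ES01 over BG03 was 0.17 and -0.07. Its other probes, each for another transcript form, were above background nowhere.

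B3GALT5 adds the galactose that completes the SSEA-3 structure and also makes type 1 chains. It was dim, at 13.9 units in ES01 and 16.4 in BG03, against 6.83 in H9, where it was not above background. With the 99th percentile as background it passed in no line. ST3GAL2, the sialyltransferase that turns this structure into SSEA-4, was steady at 143, 147 and 168 units (log2 SD 0.12). ST6GALNAC6, which can add a further sialic acid, measured 67.8, 91.7 and 112 units and was 1.65-fold lower in ES01 than in H9.

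The fucosyltransferases FUT1 and FUT2 cap the same chain to give globo H. FUT1 was above background in all lines (97.6, 118 and 126 units) and FUT2, the secretor enzyme, in none (-3.53, -3.77 and -1.97 units). Each is read by 1 probe, and whether the FUT2 probe reads its transcript was not checked, so absence is not shown; the same holds for every gene named here as not above background. Across the globo-series, H9 had the highest value in UGCG, B4GALT6, A4GALT, ST3GAL2, ST6GALNAC6 and FUT1, and the lowest in B4GALT5, B3GALNT1 and B3GALT5. With arrays scaled to the same median, the sign of ES01 over H9 turned for B4GALT5. For B3GALT5 that scaling gave no sign, since H9 was not above background and its threshold lay over the ES01 value. The median log2 difference of the 9 detected genes was -0.35 for ES01 over H9, -0.07 for ES01 over BG03 and -0.19 for BG03 over H9.

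**Figure D3:**
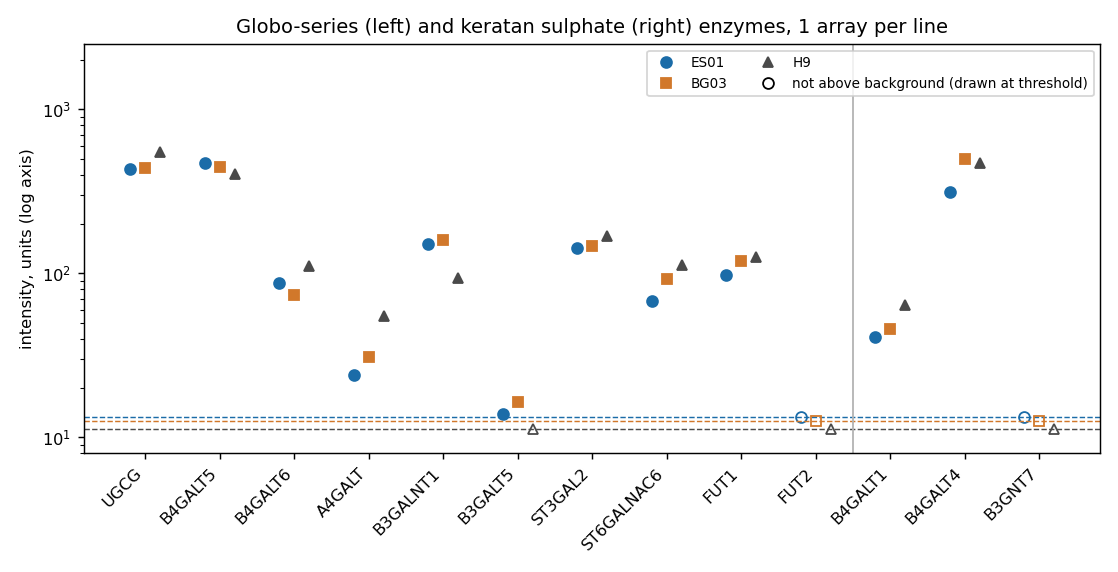
Points give the intensity (log axis) of each globo-series and keratan sulphate enzyme in ES01, BG03 and H9, 1 array each, with the background threshold of each array as a dashed line and open points, drawn at the threshold, for values not above it. A4GALT stands at 24.0, 30.8 and 54.9 units and B3GALNT1 at 152, 160 and 93.8, while FUT2 and B3GNT7 pass background nowhere; heights of different genes are not comparable.

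Keratan sulphate is a chain of galactose and N-acetylglucosamine that carries sulphate. B4GALT4, the galactosyltransferase that acts on sulphated N-acetylglucosamine, measured 314 units in ES01, 494 in BG03 and 470 in H9. ES01 was lowest, by 1.57-fold against BG03 and 1.5-fold against H9, and its SD of 0.36 was larger than for 90% of genes of like intensity. B4GALT1, a galactosyltransferase of lactosamine chains in general, gave 40.9, 45.7 and 64.1 units. B3GNT7, the N-acetylglucosaminyltransferase of keratan sulphate extension, stayed under background throughout (-0.97, 4.63 and 3.97 units), and no probe used here was annotated to B3GNT2, which extends lactosamine chains.

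Genes that work beside these enzymes were also read. Of 10 keratan sulphate partners, all lines had 4 above background, some lines another 3, and 3 passed in none. The sulphotransferases CHST1 (78.8, 74.6 and 79.6 units) and CHST6 (68.8, 77.6 and 72.7 units) were steady, and CHST2 was at or near background (15.9, 8.22 and 11.7 units). CHST4 was above background in every line (289, 293 and 266 units) and CHST5 in none. PODXL, the podocalyxin carrier of the TRA-1 antigens, measured 2264, 1700 and 1886 units. The keratan sulphate core protein gene LUM was above background in BG03 alone (48.9 units, against 10.1 in both ES01 and H9). ES01 was at least 3.69-fold lower than BG03, and BG03 was at least 4.37-fold higher than H9. LUM is also a fibroblast marker.

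Of 23 measured genes for sugar donors and carriers, 20 were above background in all 3 lines and 0 differed 2-fold. For this list and those that follow, the shares over all genes were 59.8% above background in all lines and, of genes above it in at least 1 line, 8.29% differing 2-fold in some pair. Among genes for core and branching enzymes 8 of 13 were above background in all lines, and 2 differed 2-fold. C1GALT1, which makes the core 1 O-glycan, was highest in ES01 (38.5 units, against 19.3 in BG03 and 18.0 in H9), 2.14-fold over H9. MAN1A2, a mannosidase of N-glycan trimming, passed background in BG03 alone (22.4 units, against 9.07 in ES01 and 1 in H9), at least 2-fold over H9. Glycolipid breakdown genes were above background in all lines for 9 of 12, with 0 differing 2-fold, and ceramide synthesis genes for 11 of 12. In the ceramide list SPTLC2, a subunit of serine palmitoyltransferase, was 2.05-fold lower in ES01 than in H9 (23.5 units in ES01 and 43.9 in BG03, against 48.1 in H9).

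Lactosamine and lacto-series enzymes divided into a detected and an undetected set. B4GALT2 (133, 137 and 165 units) and B4GALT3 (237, 241 and 232 units) extend lactosamine chains, and the log2 SD of B4GALT3, 0.03, was larger than for 1.60% of genes of like intensity. B3GNT5, which starts the lacto-series glycolipids, gave 27.3, 26.2 and 39.0 units, and B4GALNT4, a LacdiNAc synthase, 19.7, 35.4 and 24.3 units. GCNT2, the I-branching enzyme, was level at 44.7, 43.2 and 40.2 units at the probe for all its transcripts. Of its 3 transcript-specific probes, 1 was above background, at 16.9 units in ES01 and 11.7 in H9, against 4.73 in BG03, where it was not.

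B3GNT9 had the largest difference of any member. It was above background in H9 alone, at 54.3 units, against 7.93 in ES01 and 11.2 in BG03. ES01 was at least 4.10-fold lower than H9, and BG03 at least 4.32-fold lower than H9. Its SD of 1.20 was larger than for 98.2% of genes of like intensity. It is read by 1 probe. B3GALT1, B3GALT2, B3GNT4, B4GALNT2 and B4GALNT3 were above background in no line.

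Ganglio-series enzymes build gangliosides from the same lactosylceramide. ST3GAL5, which makes GM3 and thereby opens this branch, measured 34.4, 46.9 and 37.1 units, and B3GALT4, the GM1 synthase, 14.8, 22.1 and 20.8 units. B4GALNT1, the GM2 synthase that stands between them, was above background in no line, nor were ST8SIA1, the GD3 synthase, and ST6GALNAC5. With the 99th percentile background B3GALT4 also passed in no line. ST8SIA3, which adds sialic acid to sialic acid, gave 24.6, 22.6 and 16.2 units.

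A pair of ganglio-series sialyltransferases was at least 2-fold lower in BG03 than in H9. ST8SIA5 measured 25.5 units in ES01 and 20.4 in BG03, against 47.9 in H9 (2.34-fold lower in BG03). ST6GALNAC3 measured 32.2 units in ES01 and 19.9 in BG03, against 43.7 in H9 (2.19-fold lower in BG03). H9 was highest in both. With the 99th percentile background neither was above it in BG03, and the bounds on the log2 difference of BG03 over H9, -0.64 for ST8SIA5 and -0.51 for ST6GALNAC3, no longer reached 2-fold. With a floor of 50 units both were 0. Their SDs of 0.64 and 0.57 were larger than for 85.4% and 82.0% of genes of like intensity.

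Lewis fucosyltransferases were mostly undetected. FUT4, which can make the Lewis x epitope of SSEA-1, was above background at 69.1, 72.0 and 58.4 units. FUT9, the other main Lewis x enzyme, was not, and neither were FUT3, FUT5, FUT7 and FUT8. FUT8 adds the core fucose of N-glycans, and its single probe is specific to a transcript form by its suffix. FUT6, a Lewis-type enzyme known from liver and plasma, was bright, at 1127 units in ES01, 972 in BG03 and 754 in H9. Its log2 difference was 0.58 for ES01 over H9 and 0.37 for BG03 over H9. FUT3, FUT5 and FUT6 neighbour each other on chromosome 19 and are close in sequence, and which transcripts the FUT6 probe reads was not checked. The probes annotated to FUT3 and FUT5 were not above background in the same arrays.

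Mucin-type O-glycans begin with the polypeptide N-acetylgalactosaminyltransferases (GALNTs). Among 26 measured genes for these chains, 16 passed background everywhere, 2 in some lines and 8 nowhere. GALNT2 (1036, 979 and 789 units), GALNT11 (379, 439 and 484 units) and GALNT1 (387, 211 and 277 units) were among those in all lines. GALNT1 was highest in ES01, 1.83-fold over BG03, with an SD of 0.44 above that of 91.2% of genes of like intensity.

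GALNT12 and GALNT13 differed 2-fold, again with H9 highest. GALNT12 gave 61.1 units in ES01 and 102 in BG03, against 125 in H9, 2.04-fold lower in ES01 than in H9. GALNT13 gave 15.3 units in ES01 and 25.7 in BG03, against 34.0 in H9, 2.22-fold lower in ES01 than in H9. Its ES01 value lay near the threshold of 13.3 units. With the 99th percentile background the bound on its log2 difference of ES01 over H9 was -0.67, and with a floor of 50 units it was 0. GALNT17 followed the same order at 258, 294 and 460 units, 1.78-fold lower in ES01 than in H9, and its SD of 0.44 was larger than for 93.2% of genes of like intensity. GALNT18 went the opposite way and lay just outside the 2-fold limit, with 31.3 units in ES01 and 34.0 in BG03, against 17.5 in H9 (1.95-fold higher in BG03).

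The other GALNTs changed less between lines. GALNT3 (151, 172 and 202 units) and GALNT16 (63.2, 51.7 and 75.1 units) were highest in H9, GALNT6 (91.4, 83.7 and 73.9 units) and GALNT9 (86.9, 74.5 and 52.5 units) in ES01, and GALNT4 (35.4, 26.8 and 30.4 units) and GALNT14 (48.3, 41.0 and 48.6 units) varied by at most 1.32-fold and 1.19-fold. GALNT5, GALNT8, GALNT10 and GALNTL5 were above background in no line. Branching and capping enzymes of these chains were present as well. GCNT1, the core 2 enzyme, gave 126, 164 and 179 units and ST6GALNAC4, an O-glycan sialyltransferase, 175, 212 and 236 units.

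Others of these enzymes were near or under background. ST3GAL1, which caps core 1, was dim at 14.9, 18.7 and 13.9 units. GCNT4 was above background in ES01 and H9 (20.5 and 17.1 units) and not in BG03 (12.3), and ST6GALNAC2 was above it in BG03 and H9 (22.7 and 14.1 units) and not in ES01 (5.53). B3GNT3, B3GNT6, GCNT3 and ST6GALNAC1, the sialyl-Tn synthase, were above background in no line.

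Among the sialyltransferases that cap N-glycans, ST6GAL1 was the steadiest. It links sialic acid to lactosamine chains, and its probe for all transcripts gave 1250, 1215 and 1166 units (log2 SD 0.05), while a probe specific to a transcript form was above background in no line. ST3GAL3 was 2-fold higher in H9 than in both other lines, at 38.1 units in ES01 and 37.2 in BG03, against 83.7 in H9, 2.19-fold lower in ES01 and 2.25-fold lower in BG03. ST3GAL6 gave 43.7 units in ES01 and 56.3 in BG03, against 79.1 in H9, and ST3GAL4 was highest in ES01 (41.4, 30.4 and 29.8 units).

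Polysialic acid is a long chain placed on the neural adhesion molecule NCAM. Of its synthases, ST8SIA2 was above background in no line, and ST8SIA4 was above it in BG03 (26.2 units) and H9 (21.5 units) but not in ES01 (9.47 units). That made ES01 at least 1.98-fold lower than BG03, just short of the 2-fold limit. These ST8SIA4 values are from the probe for all its transcripts. Its other probes, each specific to a transcript form, were above background in no line. With the 99th percentile background ST8SIA4 passed in no line. ST6GAL2 and ST8SIA6 were above background in no line. The enzymes that add both galactoses of the proteoglycan linkage, B4GALT7 (383, 410.5 and 357 units) and B3GALT6 (436, 543 and 478 units), varied by at most 1.25-fold.

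Over all members, 7 of the 50 above background in at least 1 line (14.0%) differed at least 2-fold in some pair: A4GALT, B3GNT9, ST6GALNAC3, ST8SIA5, GALNT12, GALNT13 and ST3GAL3. Over all 11004 genes the share was 8.29%. Between ES01 and H9 there were 5 (5.14% of all genes), between BG03 and H9 4 (3.24% of all genes) and between ES01 and BG03 0 (3.75% of all genes, with 2.27% higher in ES01). H9 was the highest line in each of the 7, at the brightest probe of each gene. The all-transcript probe of B3GALNT1, which was not its brightest, was at least 2-fold higher in ES01 and BG03 than in H9. All 5 were lower in ES01 than in H9, where 2.24% of all genes were at least 2-fold lower and 2.9% at least 2-fold higher. All 4 were lower in BG03 than in H9, where 1.5% of all genes were at least 2-fold lower and 1.74% at least 2-fold higher. With a floor of 50 units GALNT12 alone still differed 2-fold. No p-value goes with these counts, since there is 1 array per line.

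The median log2 difference over members was -0.25 for ES01 over H9 (30 of 49 lower), against 0.00 over all genes. It was -0.13 for BG03 over H9 (26 of 49 lower), against 0.02 over all genes, and -0.07 for ES01 over BG03 (29 of 48 lower), against -0.02 over all genes. Among the 44 members above background in all lines, H9 had the highest value in 22 (50%), where it was highest in 32.5% of 9695 genes. ES01 was highest in 11 (25%, against 34.7% of genes) and BG03 in 11 (25%, against 32.8% of genes). With the values as deposited H9 was highest in 21 of 44 (26.0% of genes), and with arrays scaled to the same median in 23 of 44 (35.8% of genes). That scaling moved the median over all genes to -0.28 for ES01 over H9 and -0.36 for ES01 over BG03. It rests on array medians of 4.4 units for ES01, 3.5 for BG03 and 3.5 for H9, which lie under the background thresholds. Same-median scaling turned the sign of 11 of 49 member differences in the pair of ES01 and H9, among them B4GALT5 and FUT4. That count includes B3GALT5, which has no true sign there. Its H9 value was not above background and was set to a threshold over the ES01 value. The scaling turned the sign of 13 of 48 in the pair of ES01 and BG03, among them FUT6, GALNT9, GALNT2 and GALNT6. It turned none of 49 in the pair of BG03 and H9.

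**Figure D4:**
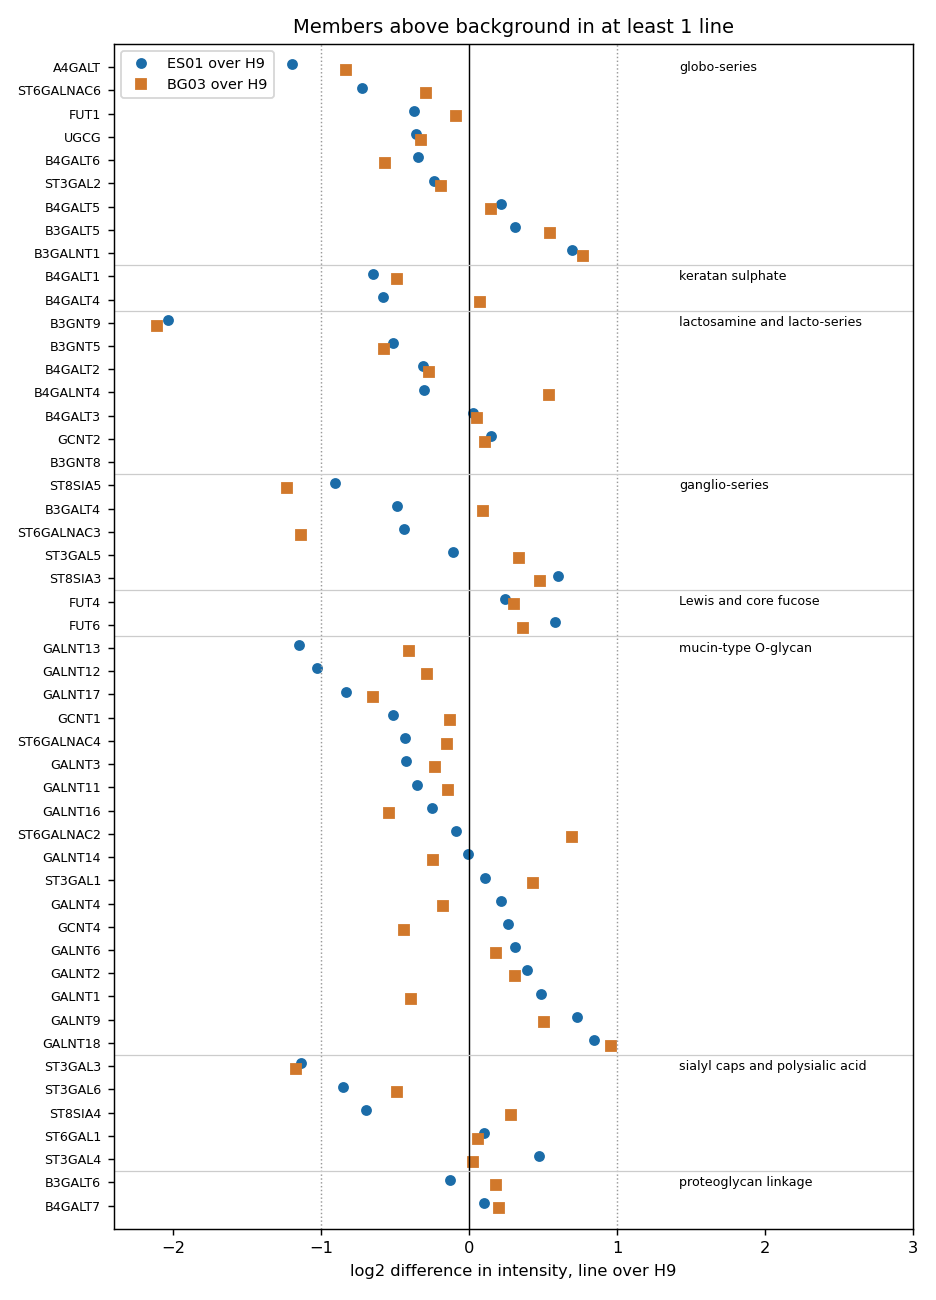
Each row is a member above background in at least 1 line, grouped by role, with its log2 difference in intensity for ES01 over H9 (circles) and BG03 over H9 (squares). Dotted lines mark 2-fold, and values not above background were set to the threshold. B3GNT8 has no point because it was above background in H9 alone, at a value under the thresholds of ES01 and BG03. Points past the dotted line lie on the left alone, for A4GALT, B3GNT9, ST8SIA5, ST6GALNAC3, GALNT13, GALNT12 and ST3GAL3.

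The members varied more between lines than genes at large, and they were also dimmer. Their median SD was 0.28 on the log2 scale, against 0.19 over all genes, and their median intensity was 64.4 units, against 166 units. Of the 50 members, 31 (62.0%) averaged under 100 units, against 39.7% of all genes. Set against the 500 genes nearest in mean intensity, the median member had a larger SD than 59.7% of them, and 4 of 50 (8%) exceeded 90% of them. Those 4 were B3GNT9, GALNT17, GALNT1 and GALNT12, of which B3GNT9 and GALNT12 also differed 2-fold.

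**Figure D5:**
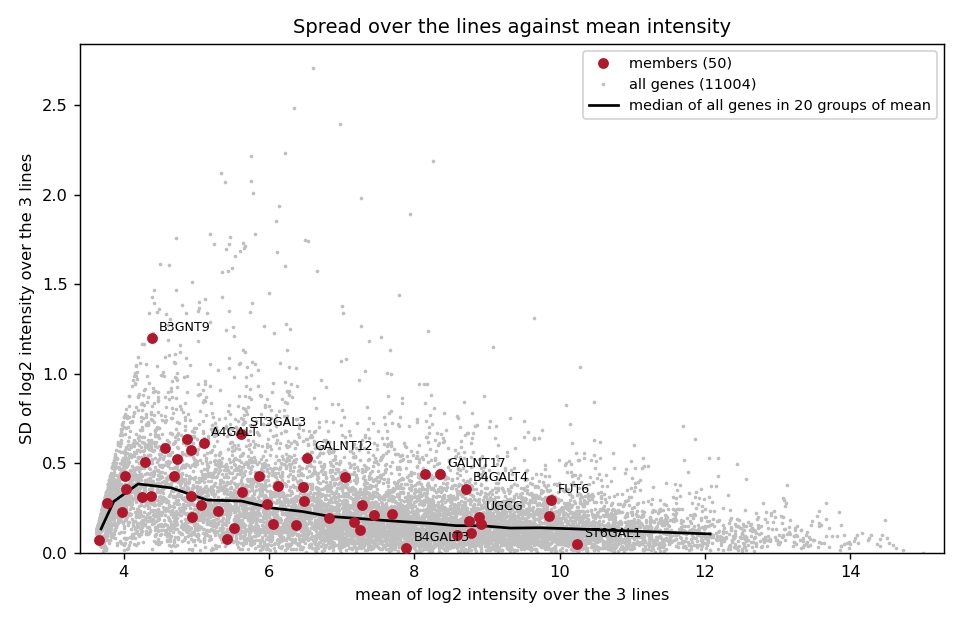
Each point is a gene above background in at least 1 line, with the SD of its log2 intensity over the 3 lines against the mean; red points are the 50 members, grey points all 11004 genes, and the black line joins the median SD in 20 groups of genes of rising mean. B3GNT9 has the largest SD of the members, 1.20, and B4GALT3, at 0.03, the smallest.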

How the data were processed

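Total RNA was extracted with TRIzol, labelled with Cy3 and hybridised to Illumina whole-genome arrays, per the labels' protocols. The deposited table gives linear intensity values for 47293 probes. The authors had subtracted background, since 26.3%, 32.8% and 33.8% of values are below 0 in ES01, BG03 and H9, and the sources used here give neither the software nor any scaling. The bead files hold intensities under codes with no gene link here, and gave bead error alone, from types with at least 5 beads after outlier removal (limit of 3 MADs).

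Probes were named by the platform annotation (28825 unnamed here), with symbols updated through RefSeq gene IDs for 18451 of 18468 probes. All but 4 control probes were quantile-normalized (limma 3.58.1, R 4.3.3). For genes with several probes the brightest was used. A pair difference needed 1 line above background. Each spread was ranked among the 500 genes nearest in mean. Members, roles and lists were chosen with earlier results of these data known. Every member was to be accounted for, with values for the globo-series, the keratan sulphate genes, those above background and any 2-fold member; names were enough for the rest. GALNT18, ST8SIA4 and the near-threshold values show the edges of each limit. Alternatives covered normalization, background, probe, floor, filter and fold. Python 3.11.15, numpy 2.4.6, pandas 2.3.3 and matplotlib 3.10.9 served for the rest.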

Additional observations from a re-analysis of the deposited data

How the results depend on the processing

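The counts of members above background, 44 in all lines and 50 in at least 1, ranged from 33 to 44 and from 43 to 51 over the alternatives that kept all 3 lines. With 1 line left out, "all lines" means the remaining lines, and the counts were 45 to 46 and 48 to 50. The count differing at least 2-fold in any pair was 7, and it was 14 with arrays scaled to the same median, 4 with the 99th percentile background, 1 with a floor of 50 units and 21 at a fold threshold of 1.5. Leaving out each line gave 0 (without H9) to 5 (without BG03), and 4 without ES01. With same-median scaling the counts were 9 between ES01 and H9 (7.21% of all genes) and 6 between ES01 and BG03 (5.52% of all genes), all lower in ES01 as were 626 and 497 genes over all, and the medians were -0.56 and -0.41. At 1.5-fold the pairs gave 15 (ES01 and H9), 9 (ES01 and BG03) and 9 (BG03 and H9), against 16.3%, 13.5% and 11.9% of 11004 genes, of which 4 were higher in ES01 than in H9, 3 higher in ES01 than in BG03 and 3 higher in BG03 than in H9. Between BG03 and H9 the 99th percentile left 1 and the floor of 50 units 0, and between ES01 and H9 that floor left 1; between ES01 and BG03 the second background set (keratin-associated and taste receptor probes) gave 2. With the 99th percentile background B3GNT9 was at least 0.82 lower in BG03 than in H9 on the log2 scale, with bounds of -0.51 for ST6GALNAC3 and -0.64 for ST8SIA5 in the same pair and -0.67 for GALNT13 in ES01 over H9. No 2-fold difference of the 7 members turned its sign in any alternative that gave it a value other than 0, though with the floor of 50 units GALNT13, ST6GALNAC3 and ST8SIA5 stood at 0 and A4GALT and B3GNT9 at -0.13 and -0.12. No paired analysis was possible because the lines form 1 group. Depth limits the dim members most: 31 of 50 averaged under 100 units. In the bead files, whose units differ, bead error was 18.9% to 23.7% of the value at 10 to 25 units over the file median.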
